A study of Mus musculus with 6 samples.

Results

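The genes described here are the 36 members of a hypoxia and glycolysis list, out of 32285 genes in each expression table: 13 glycolytic enzymes, 5 genes of fuel transport and control, 17 other hypoxia targets and Hif1a. The members were a named list looked up by symbol, and all 36 were present in all 6 libraries. 2 cuts on measured values defined the cells compared: cells were kept with 500 or more non-zero genes, and they were divided at a deposited Krt13 value of 3 into Krt13-low and Krt13-high cells, so Krt13 itself is no result below. The libraries came from esophageal epithelial organoids grown for 15 days in Matrigel from cells of C57BL6 mice that had been sorted as integrin-b1 positive and DAPI negative. Founder cells were Cyto-ID Low in 3 libraries and Cyto-ID High in 3, where Cyto-ID is a dye for autophagic vesicles, and each group holds a library numbered F2, M3 and F6. The dye describes the founder basal cells, not the organoid cells that were sequenced. Each library is 1 droplet single-cell RNA library, and the sources used here do not say how many animals or wells it pooled.

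When oxygen falls, prolyl hydroxylases of the Egln family stop marking the Hif1a protein for destruction, and it pairs with Arnt and binds a short core motif, ACGTG or GCGTG, near its target genes. Its targets raise glucose import, nearly every step of glycolysis and lactate export, and they also include angiogenic peptides, a surface carbonic anhydrase, collagen hydroxylases, mitophagy receptors and the hydroxylases Egln1 and Egln3 themselves. Hif1a is regulated mainly as a protein, so its transcript level does not report its activity. In stratified esophageal epithelium, basal cells divide next to the basement membrane and Krt13 marks the cells that have left it.

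The core motif is the sequence that Hif1a binds near its targets, so promoters were read first. RefSeq promoters (build GRCm38.p6, 250 bases before to 50 after each listed start) were matched for 34 of the 36 members, Ero1l by its synonym Ero1a, and Bnip3l and Ndrg1 were not matched. On either strand, ACGTG was found in 25 of 34 members (73.5%) against 21.8% of 27025 genes, and GCGTG in 23 (67.6%) against 35.2%. By role, ACGTG was present in 13 of 15 other hypoxia targets, 8 of 13 glycolytic enzymes and 3 of 5 genes of fuel transport and control. ACGTG is also part of the E-box CACGTG, which 5 of the 34 members held against 8.09% of all genes. These matches describe letters in a window, genes with several listed starts count as holding a motif if any start does, and no binding was measured. The 8 promoters below belong to members called the same way under both scalings described further on, all 3 that were higher in Krt13-high cells and 5 of the 8 that were lower, picked after their values were seen. Each is printed 5′ to 3′ along its gene, and capitals mark the core motif (ACGTG or GCGTG) on either strand.
Slc2a1 (chr4:119108495-119108794, plus strand): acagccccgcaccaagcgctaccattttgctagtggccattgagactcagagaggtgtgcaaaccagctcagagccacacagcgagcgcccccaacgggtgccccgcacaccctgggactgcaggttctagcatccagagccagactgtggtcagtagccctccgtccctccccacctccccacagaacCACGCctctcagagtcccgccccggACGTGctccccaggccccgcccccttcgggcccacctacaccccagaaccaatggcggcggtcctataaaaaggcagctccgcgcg
P4ha1 (chr10:59323046-59323345, plus strand): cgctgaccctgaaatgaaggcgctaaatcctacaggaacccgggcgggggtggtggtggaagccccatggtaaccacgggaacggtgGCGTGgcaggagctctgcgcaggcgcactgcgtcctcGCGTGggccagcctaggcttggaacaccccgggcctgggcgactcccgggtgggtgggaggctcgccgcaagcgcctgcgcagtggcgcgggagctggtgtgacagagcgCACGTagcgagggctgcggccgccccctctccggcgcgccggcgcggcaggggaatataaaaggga
Adm (chr7:110627407-110627706, plus strand): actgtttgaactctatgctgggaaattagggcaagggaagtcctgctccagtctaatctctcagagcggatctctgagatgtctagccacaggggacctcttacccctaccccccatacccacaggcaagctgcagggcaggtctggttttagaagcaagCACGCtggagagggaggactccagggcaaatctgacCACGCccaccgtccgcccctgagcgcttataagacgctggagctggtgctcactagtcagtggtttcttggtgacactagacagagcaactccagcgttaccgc
Car9 (chr4:43506776-43507075, plus strand): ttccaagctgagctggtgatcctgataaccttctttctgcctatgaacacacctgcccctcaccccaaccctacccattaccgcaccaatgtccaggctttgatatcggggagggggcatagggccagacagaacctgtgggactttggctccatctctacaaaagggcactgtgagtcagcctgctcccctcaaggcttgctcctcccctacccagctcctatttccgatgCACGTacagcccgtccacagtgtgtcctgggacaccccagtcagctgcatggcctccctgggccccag
Egln1 (chr8:124949205-124949504, minus strand): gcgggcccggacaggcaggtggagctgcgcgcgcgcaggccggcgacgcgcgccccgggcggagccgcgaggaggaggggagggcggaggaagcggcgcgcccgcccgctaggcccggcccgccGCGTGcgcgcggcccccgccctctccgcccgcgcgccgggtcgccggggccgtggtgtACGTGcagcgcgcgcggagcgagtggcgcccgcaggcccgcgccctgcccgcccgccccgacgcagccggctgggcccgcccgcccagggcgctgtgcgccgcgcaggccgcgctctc
Ankrd37 (chr8:45999801-46000100, minus strand): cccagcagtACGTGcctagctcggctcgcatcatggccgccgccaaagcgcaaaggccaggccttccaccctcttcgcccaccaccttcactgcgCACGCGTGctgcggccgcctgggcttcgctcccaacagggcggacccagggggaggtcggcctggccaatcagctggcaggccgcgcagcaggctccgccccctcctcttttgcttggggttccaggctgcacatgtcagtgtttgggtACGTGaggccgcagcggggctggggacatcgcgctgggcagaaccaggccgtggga
Egln3 (chr12:54203825-54204124, minus strand): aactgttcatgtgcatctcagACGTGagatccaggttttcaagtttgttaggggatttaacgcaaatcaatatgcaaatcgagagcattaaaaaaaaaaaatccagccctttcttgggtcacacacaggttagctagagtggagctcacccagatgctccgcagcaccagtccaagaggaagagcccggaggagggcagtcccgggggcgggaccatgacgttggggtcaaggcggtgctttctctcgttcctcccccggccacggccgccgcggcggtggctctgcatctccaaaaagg
Higd1a (chr9:121857747-121858046, minus strand): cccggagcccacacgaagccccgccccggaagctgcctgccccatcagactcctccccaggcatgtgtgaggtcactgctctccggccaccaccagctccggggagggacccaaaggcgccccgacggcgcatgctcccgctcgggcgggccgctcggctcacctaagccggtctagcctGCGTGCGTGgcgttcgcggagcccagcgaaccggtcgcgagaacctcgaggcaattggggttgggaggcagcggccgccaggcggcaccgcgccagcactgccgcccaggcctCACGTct

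Car9 held 1 ACGTG, 18 bases upstream of its start in the reverse orientation, Slc2a1 held ACGTG 36 and GCGTG 61 bases upstream, and Ankrd37 held 2 copies of each. Adm held GCGTG only. The printed members that were lower and those that were higher in Krt13-high cells both held a core motif in this window. So did 32 of the 34 matched members (94.1%) and 46.7% of all genes, so the motif could hardly tell the printed members apart.

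The libraries held 2855 to 5749 barcodes each, 26808 in all, of which 25154 were kept, with median depths of 1941 to 10038 UMIs (unique molecular identifiers, counted transcripts) per cell. Krt13-high cells made up 41.9 to 45.2% of kept cells in the Low libraries and 27.4 to 50.5% in the High libraries, and 3427 cells lay within 0.5 of the cut. Median UMIs per cell were higher in Krt13-high cells in 6 of 6 libraries, and the mitochondrial share and the share of cells with a UMI of a cycling gene were lower in 6 of 6. The 7 suprabasal markers other than Krt13 summed to 5175 to 10919 CPM in Krt13-high and 1065 to 2670.3 CPM in Krt13-low cells, and superficial markers to 11485 to 53905 and 810.0 to 4398 CPM. The basal marker sum was 9362 to 17945 CPM in Krt13-high and 10519 to 23552 CPM in Krt13-low cells. Of its 8 genes, 6 were lower in Krt13-high cells under both scalings, from Krt15 (log2 difference -0.66 with TMM factors by limma) to Col17a1 (-2.10), and Krt5 and Krt14 were not. With TMM factors Krt15 was higher in the F2 libraries, by 0.21 (Low) and 0.22 (High), and lower in those of M3 and F6. The 2 sets of cells are called by their rule. Fibroblast, endothelial, melanocyte, neural and erythroid marker sums stayed at or under 7.16 CPM. The 7 immune markers summed to 5.79 to 31.8 CPM with Ptprc, Cd207 and Tyrobp at 0 in every library and layer. The 10 dissociation response genes summed to 2098 to 3257 CPM in Krt13-high and 2396 to 3559 CPM in Krt13-low cells. On CPM Jun and Atf3 were lower and Junb, Ier2, Hspa1a and Hspa1b higher in Krt13-high cells of 6 of 6 libraries. Pairs of libraries shared 0 to 10 barcodes. Doublets were not removed here.

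Between the layers, P4ha1, Adm, Slc2a1, Car9, Pfkp, Egln1, Ddit4 and Hif1a were lower in Krt13-high cells, and Ankrd37, Egln3 and Higd1a were higher, whichever of 2 scalings was used, while most glycolytic enzymes changed sign between the scalings. Levels are mean CPM (UMIs scaled to 1000000 per cell, averaged over the cells of a layer in a library), and the within-library difference of log2(CPM + 1) was tested with limma over 12138 genes with Benjamini-Hochberg adjustment. The main fit scaled each layer by TMM factors, which centre most genes near 0 (median of all genes -0.01), and plain CPM moved that median to -0.37. Calls and the words higher and lower are against 0 on each scale, so a member called lower on plain CPM can still lie above the median of all genes there, as Vegfa, Gapdh, Pkm, Ldha, Ndrg1 and Ak4 did. With TMM factors 28 of 36 members passed an adjusted p of 0.05, 20 higher and 8 lower, where 61.1% of all genes passed (31.1% higher and 30% lower). On plain CPM 3 members were higher and 22 lower, against 15.4% and 58.3% of all genes (73.7% in all). The replicate block, which takes differences between replicate numbers out of the error, left 20 higher and 8 lower, against 32.8% and 31.8% of all genes (64.6% in all). Whether same-numbered libraries share a source is not stated, so the 6 within-library differences may not be independent. The share of calls that were higher fell from 71.4% to 12% among members and from 50.9% to 20.9% among all genes. Called the same way under both scalings were 3 of 36 members higher (15.4% of all genes) and 8 of 36 lower (30% of all genes), or 45.4% in either direction, and the members' counts are not above these shares. On plain CPM 13 of 36 members were lower in 6 of 6 libraries (50.5% of all genes) and 2 higher (13.1%). The ranges of the layers did not overlap for 5 of 36 members, against 21.6% of all genes.

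**Figure D1:**
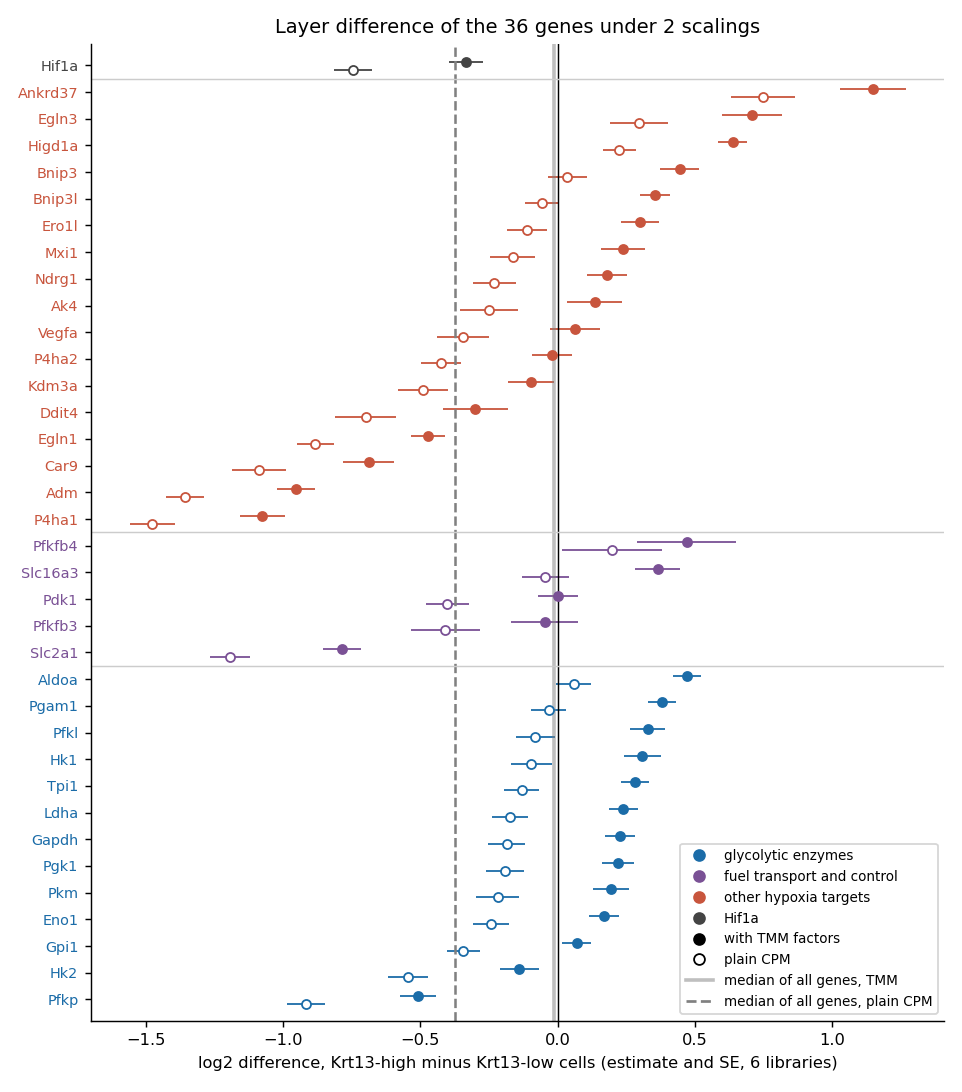
Log2 difference between Krt13-high and Krt13-low cells for each of the 36 genes (x axis, estimate with its SE over 6 libraries), with TMM factors (filled) and on plain CPM (open), and vertical lines at the median of all genes under each scaling. P4ha1, Adm, Slc2a1 and Car9 lie left of 0 and Ankrd37, Egln3 and Higd1a right of 0 under both, and every glycolytic enzyme but Pfkp, Hk2 and Aldoa lies right of 0 with TMM factors and left of it on plain CPM.

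The glycolytic enzymes carry glucose to pyruvate and lactate. With TMM factors 10 of the 13 were higher and 1 lower, with a median log2 difference of 0.23, and on plain CPM none was higher and 8 were lower, with a median of -0.18. Under both scalings the median of the enzymes lay above that of all genes. Pfkp, the platelet-type phosphofructokinase, was the enzyme called lower under both. Its levels were 67.2, 144 and 206 CPM in Krt13-low cells (lowest, median and highest library) and 42.4, 60.6 and 107 CPM in Krt13-high cells. For Pfkp the log2 difference was -0.51 (SE 0.07, adjusted p 1.0e-05) with TMM factors and -0.92 (SE 0.07, adjusted p 4.0e-09) on plain CPM. It was lower in 6 of 6 libraries, although the ranges of the layers overlapped. Its liver-type partner Pfkl had 67.1, 127 and 197 CPM in Krt13-low cells and 86, 111 and 162 CPM in Krt13-high cells, a log2 difference of 0.33 (adjusted p 4.6e-04) with TMM factors and -0.08 (adjusted p 0.31) on plain CPM. The levels of Pfkl overlapped almost wholly between layers. Aldoa, the aldolase, showed 728, 1901 and 2424 CPM in Krt13-low cells and 867, 1934 and 2339 CPM in Krt13-high cells, with 0.47 (adjusted p 2.1e-06) with TMM factors and 0.06 (adjusted p 0.41) on plain CPM. Pgam1, a phosphoglycerate mutase, gave 0.38 (adjusted p 1.5e-05) with TMM factors and -0.03 (adjusted p 0.65) on plain CPM. These were the enzymes with the largest positive differences.

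Pkm, the pyruvate kinase, had 918, 2000.3 and 3265 CPM in Krt13-low cells and 1034, 1535 and 2779 CPM in Krt13-high cells, and its difference was 0.19 (adjusted p 0.019) with TMM factors and -0.22 (adjusted p 0.018) on plain CPM. Ldha, which turns pyruvate into lactate, had 1080.4, 1578 and 2242 CPM in Krt13-low cells and 1120.1, 1309 and 2000.4 CPM in Krt13-high cells, with 0.24 (adjusted p 0.0011) with TMM factors and -0.17 (adjusted p 0.024) on plain CPM. For both, the call passed in opposite directions under the 2 scalings, as it did for Gapdh, Pgk1 and Eno1. Hk2, the inducible hexokinase, gave -0.14 (adjusted p 0.1) with TMM factors and -0.54 (adjusted p 4.5e-06) on plain CPM, and Gpi1, the glucose phosphate isomerase, 0.07 (adjusted p 0.26) with TMM factors and -0.34 (adjusted p 8.7e-05) on plain CPM. Both were lower in 6 of 6 libraries on plain CPM. Several of these enzymes have processed pseudogenes in the mouse genome, and how reads shared with them were counted is not given in the sources used here. Counted as UMIs per cell, with no scaling for depth, the 13 enzymes together were 1.11 to 1.37 times as high in Krt13-high cells, in 6 of 6 libraries, where cells also held more UMIs in all.

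Among the genes of fuel transport and control, Slc2a1, the main glucose importer of epithelia, fell the most. Its levels were 123, 191 and 277 CPM in Krt13-low cells (lowest, median and highest library) and 50.5, 83.6 and 122 CPM in Krt13-high cells, and the layers did not overlap. For Slc2a1 the log2 difference was -0.78 (SE 0.07, adjusted p 1.6e-07) with TMM factors and -1.19 (SE 0.07, adjusted p 2.1e-10) on plain CPM. Slc16a3, the lactate exporter, had 41.8, 101 and 143 CPM in Krt13-low cells and 51.4, 104 and 119.6 CPM in Krt13-high cells, with 0.36 (adjusted p 0.0012) with TMM factors and -0.04 (adjusted p 0.65) on plain CPM. Pdk1, a kinase that inhibits pyruvate dehydrogenase, had 43.6, 47.8 and 65.1 CPM in Krt13-low cells and 32, 38.6 and 43.1 CPM in Krt13-high cells. Its log2 difference by limma was 0.00 (adjusted p 0.98) with TMM factors and -0.40 (adjusted p 1.8e-04) on plain CPM. Its layers did not overlap on plain CPM, as was so for 21.6% of all genes. Pfkfb3 and Pfkfb4, which make the activator of phosphofructokinase, were near the floor. Pfkfb4 was at 0.996 to 3.5 CPM over all 12 sets, and its call with TMM factors (0.47, adjusted p 0.036) did not pass on plain CPM (0.20), nor with TMM factors in 5 of 6 fits that left out 1 library. As UMIs per cell the 5 genes together were 0.773 to 0.935 times as high in Krt13-high cells, where the enzymes were at 1.11 to 1.37 and the 17 other hypoxia targets together at 1.12 to 1.42. These are sums, which the most abundant genes weigh on most. Singly, 7 of the 17 targets and 8 of the enzymes were higher per cell in 6 of 6 libraries. The share of all genes was not taken. Slc2a1 had the most UMIs per cell of the 5 in Krt13-low cells of 6 of 6 libraries, and in Krt13-high cells Slc16a3 had the most in 4 of 6 and Slc2a1 in 2. Slc16a3 was higher per cell in Krt13-high than in Krt13-low cells in 6 of 6 libraries, where cells also held more UMIs in all.

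The other hypoxia targets split in both directions. P4ha1, a catalytic subunit of the collagen prolyl hydroxylase, had 38.1, 68.1 and 94.4 CPM in Krt13-low cells (lowest, median and highest library) and 12.5, 24.1 and 30.6 CPM in Krt13-high cells. For P4ha1 the log2 difference was -1.08 (SE 0.08, adjusted p 3.3e-08) with TMM factors and -1.48 (SE 0.08, adjusted p 6.2e-11) on plain CPM. Adm, which encodes the vasodilator adrenomedullin, had 82.2, 88.8 and 116 CPM in Krt13-low cells and 28.3, 32.2 and 55.5 CPM in Krt13-high cells. For Adm the log2 difference was -0.95 (SE 0.07, adjusted p 2.1e-08) with TMM factors and -1.36 (SE 0.07, adjusted p 2.9e-11) on plain CPM. For both genes every Krt13-high set was below every Krt13-low set. Car9, the surface carbonic anhydrase that is a classical marker of hypoxic cells, ranged widely between libraries, with 11.2, 66.8 and 165 CPM in Krt13-low cells and 7.45, 26.9 and 64.9 CPM in Krt13-high cells. For Car9 the log2 difference was -0.69 (SE 0.09, adjusted p 1.6e-05) with TMM factors and -1.09 (SE 0.10, adjusted p 3.8e-08) on plain CPM. It was lower in 6 of 6 libraries while the ranges overlapped. Egln1, the main oxygen-sensing hydroxylase, had 90.9, 277 and 473 CPM in Krt13-low cells and 64.3, 149 and 234 CPM in Krt13-high cells, with -0.47 (adjusted p 1.2e-05) with TMM factors and -0.88 (adjusted p 4.6e-09) on plain CPM. Ddit4, an inhibitor of the growth kinase mTOR, had -0.30 (adjusted p 0.04) with TMM factors and -0.70 (adjusted p 2.6e-05) on plain CPM, and its TMM value no longer passed without the Low library M3 (-0.30), the Low library F6 (-0.19) or the High library F6 (-0.14).

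Ankrd37, an ankyrin repeat protein, went the other way, with 20.3, 25.8 and 30.3 CPM in Krt13-low cells and 32.8, 42 and 58.9 CPM in Krt13-high cells, and its layers did not overlap. For Ankrd37 the log2 difference was 1.15 (SE 0.12, adjusted p 9.4e-07) with TMM factors and 0.75 (SE 0.12, adjusted p 1.9e-05) on plain CPM. Higd1a, a small protein of the mitochondrial inner membrane, had 284, 387 and 522 CPM in Krt13-low cells and 332, 440.3 and 728 CPM in Krt13-high cells, higher in 6 of 6 libraries. For Higd1a the log2 difference was 0.64 (SE 0.05, adjusted p 8.6e-08) with TMM factors and 0.23 (SE 0.06, adjusted p 0.0032) on plain CPM. Egln3, the hydroxylase most responsive to hypoxia, was higher in 4 of 6 libraries on plain CPM, with 56.3, 166 and 312 CPM in Krt13-low cells and 87.7, 225 and 252 CPM in Krt13-high cells. For Egln3 the log2 difference was 0.71 (SE 0.11, adjusted p 5.7e-05) with TMM factors and 0.30 (SE 0.11, adjusted p 0.019) on plain CPM. Vegfa, the angiogenic growth factor, gave 0.06 (adjusted p 0.58) with TMM factors and -0.35 (adjusted p 0.0036) on plain CPM, so it was called on plain CPM only, at a value close to the median of all genes. Bnip3, a mitophagy receptor, had 84.5, 130.0 and 229 CPM in Krt13-low cells and 83.9, 147 and 212 CPM in Krt13-high cells, with 0.45 (adjusted p 7.9e-05) with TMM factors and 0.04 (adjusted p 0.66) on plain CPM, and Bnip3l, Ero1l and Mxi1 were likewise called higher only with TMM factors. Ndrg1 was called higher with TMM factors and lower on plain CPM (0.18 and -0.23). P4ha2, Kdm3a and Ak4, like Vegfa, were called lower on plain CPM only. Leaving out 1 library ended the TMM call of Mxi1 in 3 cases and of Ndrg1 in 4 (adjusted p 0.061 to 0.13). The median of the 17 targets was 0.14 with TMM factors and -0.25 on plain CPM.

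Hif1a transcripts had 207, 251 and 405 CPM in Krt13-low cells and 115, 143 and 304 CPM in Krt13-high cells, lower in 6 of 6 libraries. For Hif1a the log2 difference was -0.33 (SE 0.06, adjusted p 2.9e-04) with TMM factors and -0.74 (SE 0.07, adjusted p 5.4e-08) on plain CPM. As UMIs per cell they were 0.629 to 0.883 times as high in Krt13-high cells.

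Ratios between related genes do not depend on the scaling, so 6 pairs, chosen after the values were seen, were described without a test. The log2 ratio of Pfkl to Pfkp was 0.84 ± 0.32 (SD, n = 6) higher in Krt13-high cells, and that of Hk1 to Hk2 0.46 ± 0.23 (SD, n = 6). That of Egln3 to Egln1 was higher by 1.19 ± 0.62 (SD, n = 6) and that of P4ha2 to P4ha1 1.08 ± 0.28 (SD, n = 6). Each of these 4 ratios shifted the same way in 6 of 6 libraries. Thus within each of these families the transcripts shifted from the second-named gene towards the first. The ratio of the lactate exporter Slc16a3 to the glucose importer Slc2a1 shifted by 1.16 ± 0.49 (SD, n = 6), also in 6 of 6 libraries. The mitophagy receptors Bnip3 and Bnip3l kept their ratio within the spread, at 0.09 ± 0.17 (SD, n = 6), above 0 in 3 of 6.

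Finer Krt13 classes were described without a test. Between cells without Krt13 and cells with a value of 5 to under 6, mean CPM of P4ha1 was 0.16 to 0.272 times as high, of Slc2a1 0.18 to 0.321 times, of Adm 0.0622 to 0.447 times and of Car9 0.0893 to 0.508 times, lower in 6 of 6 libraries. Ankrd37 was 1.1 to 2.9 and Higd1a 1.02 to 1.59 times as high, higher in 6 of 6, and Egln3 was higher in 4 of 6. These classes are on plain CPM and were not matched for depth. The share of all genes was not taken for the classes or for the step across the cut. Between the layers on plain CPM, 50.5% of all genes were lower in 6 of 6 libraries and 13.1% higher. A fall in 6 of 6 libraries is therefore not particular to these members. Cells without Krt13 made up 2197 of 3254 Krt13-low cells in the High library F6, with a median of 1861 UMIs over all its Krt13-low cells. In the High library F2 they were 794 of 3087, with a median of 9645 UMIs in Krt13-low cells. Vegfa was 0.307 to 0.751 and Ero1l 0.394 to 0.722 times as high, lower in 6 of 6. Between the layers Vegfa gave 0.06 (adjusted p 0.58) with TMM factors and -0.35 (adjusted p 0.0036) on plain CPM, and Ero1l 0.30 (adjusted p 0.0019) with TMM factors and -0.11 (adjusted p 0.18) on plain CPM. Pfkfb3, at low counts, was 0.132 to 0.581 times as high, with -0.05 (adjusted p 0.76) with TMM factors and -0.41 (adjusted p 0.0075) on plain CPM between the layers. A step down at every class up to 5 to under 6 was seen for Car9 in 4 of 6 libraries, for Slc2a1, P4ha1 and Egln1 in 3, for Hif1a in 2 and for Adm in 0. Gapdh, the glyceraldehyde phosphate dehydrogenase, lay at 0.692 to 0.953 times, and Aldoa at 0.845 to 1.2 times. Just below and just above the cut (2 to under 3 against 3 to under 4), the library medians were 188 and 119 CPM for Slc2a1, 55.1 and 31.2 CPM for P4ha1, and 28.4 and 40.3 CPM for Ankrd37. Across the cut Slc2a1 and P4ha1 were lower in 6 of 6 libraries and Ankrd37 was higher in 5 of 6, the exception being the Low library M3. Gapdh, Pkm and Ldha, called lower between the layers on plain CPM and higher with TMM factors, had lower median CPM above the cut than below it, with 3151 and 2842 CPM for Gapdh.

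**Figure D2:**
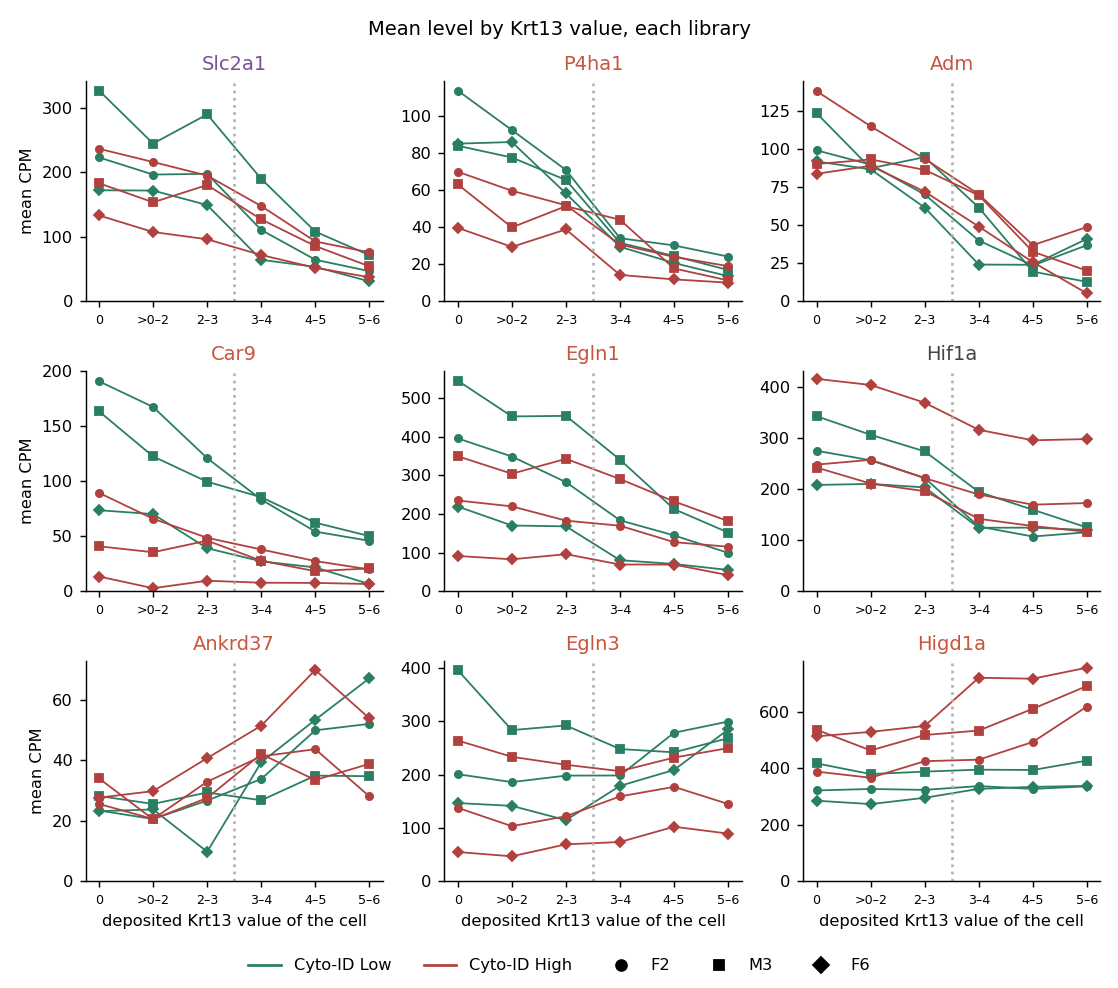
Mean CPM (y axis, from 0) of 9 genes in cells grouped by their deposited Krt13 value (x axis), with a line for each of the 6 libraries coloured by Cyto-ID group and a dotted line at the cut of 3. Slc2a1, P4ha1, Adm, Car9, Egln1 and Hif1a are lower at 5 to under 6 than at 0 in 6 of 6 libraries, and Ankrd37 and Higd1a end higher than they start in 6 of 6 libraries. Between the layers on plain CPM, 50.5% of all genes were lower in 6 of 6 libraries and 13.1% higher.

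Of 108 further genes of the HIF system, other hypoxia targets and carbohydrate metabolism, 88 were tested, of which 33 were higher and 22 lower with TMM factors (31.1% and 30% of all genes), and 18 higher and 48 lower on plain CPM (15.4% and 58.3% of all genes). These counts are near the shares of all genes. Large falls (log2 difference with TMM factors and on plain CPM) included the collagen lysyl hydroxylases Plod1 (-1.73 and -2.03) and Plod2 (-1.26 and -1.63). They also included the placental growth factor Pgf (-1.54 and -1.75), which was under 10 CPM in every library, and the lactate and pyruvate carrier Slc16a1 (-1.19 and -1.57). The 5 largest rises were of Fbp2, a gluconeogenic bisphosphatase (2.95 and 2.62), Cited2, which competes with Hif1a for its coactivator (2.12 and 1.71), the lipid droplet protein Hilpda (1.70 and 1.29), the pyruvate carboxylase Pcx (1.69 and 1.30) and the peptide precursor Edn1 (1.68 and 1.29). Cited2 stood at 40.8, 85.1 and 152 CPM in Krt13-low cells and 113, 320.2 and 599 CPM in Krt13-high cells, and Plod2 at 15, 22.1 and 28 CPM in Krt13-low cells and 4.42, 6.1 and 9.76 CPM in Krt13-high cells. Hypoxia targets were thus among both the large falls and the large rises. These 9 genes were each called the same way under both scalings.

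Between Cyto-ID Low and High founders, Car9 was the member that stood furthest apart. In Krt13-low cells it had 165, 125 and 65.1 CPM in Low F2, M3 and F6 and 68.5, 41.5 and 11.2 CPM in High F2, M3 and F6, and no other gene of the 11730 tested had a more negative log2 difference. Car9 thus gave a log2 difference of -1.60 (SE 0.53, 95% interval -2.79 to -0.41, adjusted p 0.59) in Krt13-low cells. In Krt13-high cells it had 63.7, 64.9 and 19.1 CPM in Low F2, M3 and F6 and 32.2, 21.6 and 7.45 CPM in High F2, M3 and F6. Car9 thus gave a log2 difference of -1.20 (SE 0.52, 95% interval -2.35 to -0.05, adjusted p 0.65) in Krt13-high cells. Car9 was lower in the High library of 3 of 3 pairs in each layer, by the most in F6 in Krt13-low cells. The groups overlapped in both layers, because the Low library F6 lay below the High library F2. With limma and no pairing, 0 of 36 members passed an adjusted p of 0.05 in either layer, where 27 genes (0.23%) and 32 genes (0.287%) of all tested passed. An unadjusted p under 0.05 was reached by 4 members in Krt13-low and 2 in Krt13-high cells, against 7.14% and 7.56% of all genes. With the replicate number as a block, Car9 was called lower in each layer (adjusted p 0.03 and 0.029), where 0.0512% and 0.108% of all genes were called lower, 0.639% and 0.673% higher, and 0.691% and 0.781% in all. Without the High library F6 the unblocked difference was -0.94 in Krt13-low and -0.66 in Krt13-high cells. Whether the libraries of a group came from separate animals is not stated, so the p-values measure the spread between these libraries.

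**Figure D3:**
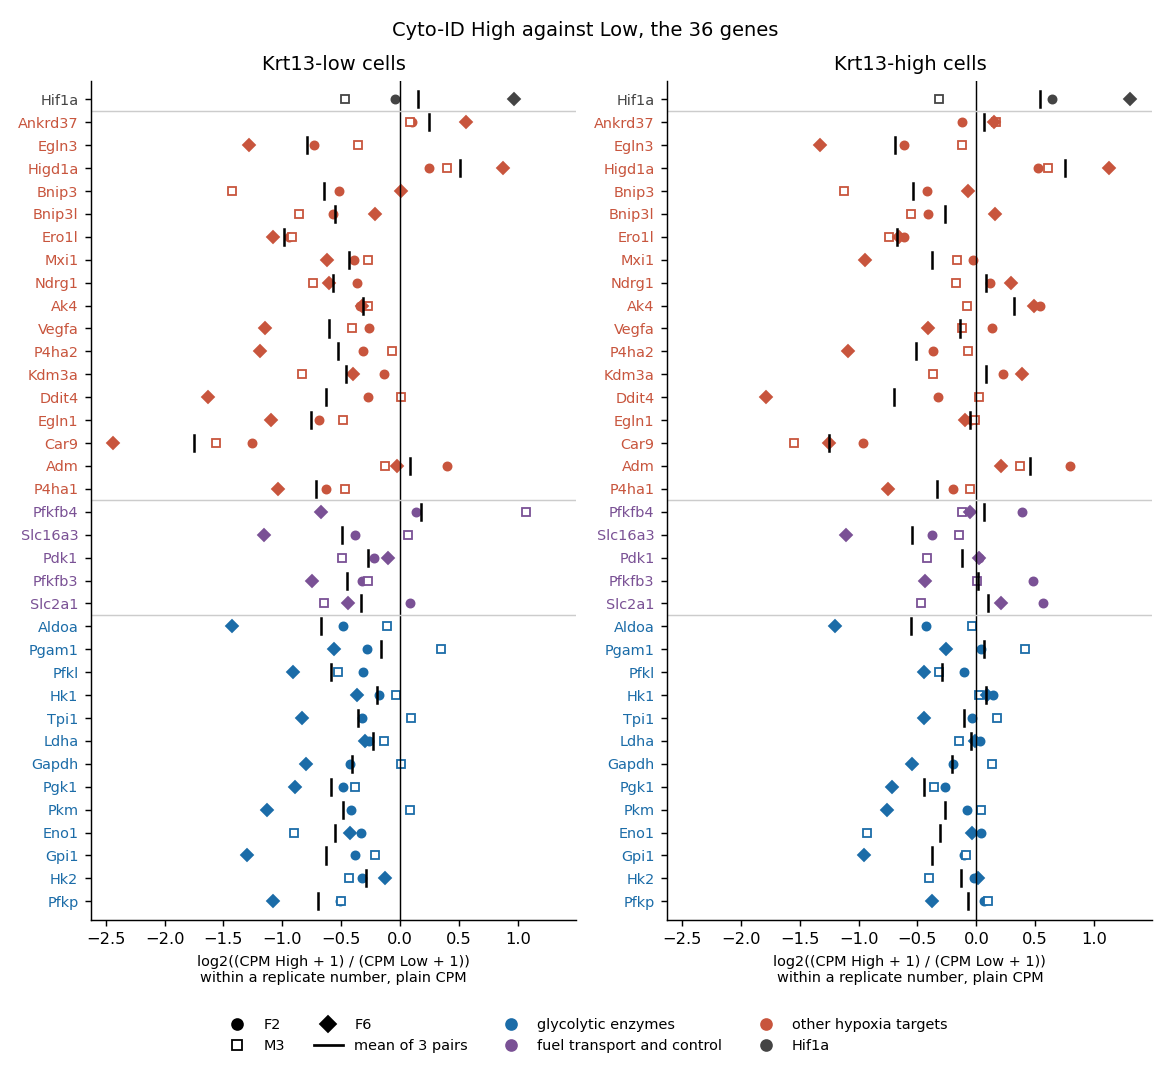
Log2 ratio of Cyto-ID High to Cyto-ID Low mean CPM (x axis, 1 CPM added) for each of the 36 genes within the replicate numbers F2, M3 and F6 (symbols), with the mean of the 3 pairs as a bar, in Krt13-low (left) and Krt13-high cells (right). Car9 lies left of 0 and Higd1a right of 0 in every pair of both layers, and 11 of 13 glycolytic enzymes lie furthest left in F6 in Krt13-low cells and 9 of 13 in Krt13-high cells.

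In Krt13-low cells the members as a set leaned lower in the High libraries. The median log2 difference was -0.33 for the glycolytic enzymes, with 13 of 13 below 0, and -0.41 for the other hypoxia targets, with 14 of 17 below 0, where the median of all genes was 0.00. In the limma fit without the block, none of the 13 enzymes fell below 0.05 before adjustment. In the blocked fit 2 of the 13 enzymes did, as did 9 of 36 members and 1623 of 11730 genes. No enzyme passed the adjusted threshold in either fit. In 17 alternative fits Pgam1 changed sign in 6, Hk1 and Ldha in 3, and Hk2, Tpi1, Gapdh and Pkm in fewer. On plain CPM 23 of 36 members were lower in 3 of 3 pairs, against 33.6% of all genes, and the groups did not overlap for 5 members, against 14%. In Krt13-high cells the medians were -0.15 and -0.21, 13 of 36 members were lower in 3 of 3 pairs (25.4% of all genes), and the groups did not overlap for 3 (11.9% of all genes). Single libraries moved these medians. Without the F6 High library, the shallowest, the Krt13-low medians were -0.15 and -0.26, and the glycolytic one was -0.17 without the High library F2 and -0.68 without the High library M3. In Krt13-high cells the glycolytic median was 0.05 without it, 0.02 without either the High library F2 or the Low library M3, and -0.44 without the High library M3. The hypoxia target median there was -0.05 without the Low library F2 and -0.10 without the High library F6. The sum of 10 proliferation markers was higher in the High library of 3 of 3 pairs in both layers, at 182 to 482 CPM in Krt13-low cells, and so was the sum of suprabasal markers other than Krt13. Among the latter Krtdap stood at 168, 114 and 56.4 CPM (Low) and 1678, 1244 and 2851 CPM (High) in Krt13-high cells of F2, M3 and F6. Sbsn, Dsg1a and Klf4 were also higher there in 3 of 3 pairs, while Krt6a was lower in M3, Krt4 was lower in F2 and F6, and Grhl3 was level in F2. The sum of 10 dissociation response genes was lower in the High library of 3 of 3 pairs in Krt13-low cells, the direction of the members, by the most in F6. It stood there at 3559, 3393 and 3524 CPM (Low) and 3454, 3272 and 2396 CPM (High) in F2, M3 and F6. Fos, Jun, Junb and Hspa1a were lower in 3 of 3 pairs, Dusp1 was higher in 3 of 3 and the others were mixed. In Krt13-high cells the sum was higher in 2 of 3. The sum of superficial markers was lower in the High library in F2 and F6 and higher in M3 in both layers. It was mostly Psca and differed most in F6. In that pair it stood at 53905 (Low) and 11485 CPM (High) in Krt13-high cells and 4398 and 810.0 CPM in Krt13-low cells. Psca alone gave 51972 and 9856 CPM in Krt13-high cells of F6. There Sprr3, Sprr1b, Lor, Cnfn and Rptn were higher in the High library, and Sprr2f and Tgm3 lower. In Krt13-low cells of F6, Sprr3, Sprr1b, Lor and Tgm3 were higher in the High library, and Psca, Sprr2f and Cnfn lower. The sum of basal markers was higher in the High library of 2 of 3 pairs in Krt13-low and 1 of 3 in Krt13-high cells. Its genes were split in Krt13-low cells. Krt15, Itgb1, Itga6, Itgb4 and Col17a1 were lower in the High library of 3 of 3 pairs. Krt5 and Krt14, the most abundant, were higher in F2 and M3 and lower in F6, and Trp63 was lower in M3 only. The immune sum, with Ptprc at 0, was lower in 3 of 3 pairs in Krt13-low cells (5.79 to 15.1 CPM) and in 2 of 3 in Krt13-high cells. The part of these markers in the result was not tested. With cycling cells left out the Krt13-low medians were -0.32 and -0.31.

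Among the enzymes, Pfkp had the largest difference in Krt13-low cells, with 146, 206 and 143 CPM (Low) and 102, 145 and 67.2 CPM (High) in F2, M3 and F6. Pfkp thus gave a log2 difference of -0.54 (SE 0.29, 95% interval -1.19 to 0.11, adjusted p 0.73) in Krt13-low cells. Aldoa had 1843, 2424 and 1959 CPM (Low) and 1313, 2243 and 728 CPM (High) in Krt13-low cells and 1873, 2339 and 1994 CPM (Low) and 1392, 2274 and 867 CPM (High) in Krt13-high cells. Aldoa thus gave a log2 difference of -0.50 (SE 0.40, 95% interval -1.39 to 0.39, adjusted p 0.78) in Krt13-high cells. Both were lowest in the F6 High library in Krt13-low cells. Pgk1, a phosphoglycerate kinase, had 1144, 1505 and 1097 CPM (Low) and 949.8, 1175 and 667 CPM (High) in Krt13-high cells, lower in 3 of 3 pairs. Pgk1 thus gave a log2 difference of -0.39 (SE 0.32, 95% interval -1.11 to 0.33, adjusted p 0.78) in Krt13-high cells. Pkm was higher in the High library of M3 and lower in those of F2 and F6 in Krt13-low cells, at 1993, 3086 and 2007 CPM (Low) and 1493, 3265 and 918 CPM (High). Ldha had 1723, 2242 and 1326 CPM (Low) and 1433, 2034 and 1080.4 CPM (High) in Krt13-low cells (log2 difference -0.07, 95% interval -0.81 to 0.66), an interval that leaves room for changes in either direction. Pfkl had 127, 197 and 127 CPM (Low) and 102, 136 and 67.1 CPM (High) in Krt13-low cells, lower in 3 of 3 pairs.

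Of the transporters, Slc16a3 had 101, 119.6 and 112 CPM (Low) and 77, 108 and 51.4 CPM (High) in Krt13-high cells, lower in 3 of 3 pairs. Slc16a3 thus gave a log2 difference of -0.49 (SE 0.30, 95% interval -1.15 to 0.18, adjusted p 0.72) in Krt13-high cells. In Krt13-low cells it had 108, 137 and 94.5 CPM (Low) and 82.6, 143 and 41.8 CPM (High). Slc2a1 moved differently by pair, with 205, 277 and 167 CPM (Low) and 217, 176 and 123 CPM (High) in Krt13-low cells and 79.2, 122 and 50.5 CPM (Low) and 118, 88 and 58.5 CPM (High) in Krt13-high cells (log2 difference 0.16, 95% interval -0.56 to 0.88). It was lower in High only in the M3 pair in Krt13-high cells. Pfkfb3 was at 7.89, 12.5 and 10.9 CPM (Low) and 6.09, 10.2 and 6.05 CPM (High) in Krt13-low cells, lower in 3 of 3 pairs at low counts.

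Ero1l, an oxidase of the endoplasmic reticulum, had 590.2, 513 and 340.0 CPM (Low) and 306, 270.1 and 160.4 CPM (High) in Krt13-low cells. Ero1l thus gave a log2 difference of -0.82 (SE 0.27, 95% interval -1.44 to -0.21, adjusted p 0.59) in Krt13-low cells. All 3 High libraries were below all 3 Low libraries there, and Ero1l was lower in 3 of 3 pairs in Krt13-high cells too. Higd1a went the other way in both layers. In Krt13-high cells it had 334, 401 and 332 CPM (Low) and 479.8, 612 and 728 CPM (High), with the High libraries all above the Low ones. Higd1a thus gave a log2 difference of 0.81 (SE 0.30, 95% interval 0.15 to 1.47, adjusted p 0.63) in Krt13-high cells. In Krt13-low cells it had 324, 390.4 and 284 CPM (Low) and 384, 515 and 522 CPM (High), higher in 3 of 3 pairs. Higd1a thus gave a log2 difference of 0.66 (SE 0.26, 95% interval 0.07 to 1.26, adjusted p 0.66) in Krt13-low cells. P4ha1 had 94.4, 75.4 and 79.5 CPM (Low) and 60.8, 54.4 and 38.1 CPM (High) in Krt13-low cells, with all High libraries below all Low ones (log2 difference -0.55, adjusted p 0.64). Adm had 31.5, 30.4 and 28.3 CPM (Low) and 55.5, 39.6 and 32.9 CPM (High) in Krt13-high cells, with all High libraries above all Low ones (log2 difference 0.51, adjusted p 0.66). Vegfa had 113, 83.9 and 87.8 CPM (Low) and 93.8, 62.9 and 39.1 CPM (High) in Krt13-low cells, lower in 3 of 3 pairs. Bnip3 had 196, 229 and 123 CPM (Low) and 136, 84.5 and 124 CPM (High), lower in 2 of 3 pairs and level in F6. Hif1a had 254, 304 and 207 CPM (Low) and 247, 219.7 and 405 CPM (High) in Krt13-low and 115, 159 and 122 CPM (Low) and 180.5, 127 and 304 CPM (High) in Krt13-high cells, with its highest level in each layer in the F6 High library. None of these passed the adjusted threshold with or without the block. Of the 108 further genes, Tfrc, the transferrin receptor, was called higher in the High libraries in both layers with the block only (log2 difference 1.39, adjusted p 0.019, and 1.28, adjusted p 0.038).

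The layer difference itself was compared between the groups. For Egln1 the log2 layer differences were -0.69, -0.61, -1.04 in the Low libraries F2, M3 and F6 and -0.18, -0.12, -0.19 in the High libraries (difference 0.62, SE 0.12, adjusted p 0.073 and 0.0031 with the replicate block). The fall of Egln1 was thus smaller in every High library than in every Low library. Pfkp gave -0.80, -0.64, -0.90 and -0.34, -0.02, -0.35 (difference 0.54, SE 0.13, adjusted p 0.15 and 0.011 with the replicate block), and Ndrg1, a stress response gene, -0.24, -0.08, 0.02 and 0.12, 0.50, 0.77 (difference 0.56, SE 0.15, adjusted p 0.18 and 0.0042 with the replicate block). Egln1 stood at 348, 473 and 196 CPM (Low) and 216, 337 and 90.9 CPM (High) in Krt13-low cells and 152, 234 and 68.6 CPM (Low) and 147, 232 and 64.3 CPM (High) in Krt13-high cells, so the pairs were closer in Krt13-high cells. With limma and no block, 0 of 36 members passed, 7 had an unadjusted p under 0.05 (9.8% of all genes did), and 24 of all genes passed (0.198%, of which 0.0824% higher and 0.115% lower). With the block, these 3 members passed, all with a positive difference, where 0.882% of all genes were called higher (1.24% lower, 2.12% in all). The median difference of all members was 0.16 and that of all genes 0.01. Egln1 also passed without the Low library M3 (adjusted p 0.025) and Ndrg1 without the High library F2 (adjusted p 0.042). Of the 108 further genes, the block called Fam162a higher and Cited2 and Taldo1 lower.

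Within libraries, cells that carried more transcripts of the other hypoxia targets also carried more of the glycolytic enzymes. To compare cells at equal depth, each cell was thinned to 1000 UMIs, which kept 14960 Krt13-low and 9847 Krt13-high cells. In each of the 12 combinations of library and layer, the mean number of glycolytic UMIs rose over the classes of 0, 1 to 2, 3 to 5 and 6 or more hypoxia-target UMIs, to 1.54 to 2.08 times the first class. In Krt13-low cells of the Low library M3 the means were 13.9, 16.7, 21.6 and 27.3 UMIs, and in those of the High library F6 they were 6.25, 6.66, 7.93 and 10.3. Pearson's r between the sums ran from 0.271 to 0.515 in Krt13-low and 0.254 to 0.397 in Krt13-high cells (Spearman's rho 0.205 to 0.516 and 0.207 to 0.404), over 1146 to 3175 cells of 1 library that share their depth after thinning. These r values describe cells and carry no p. At each class in each layer, the M3 libraries held the highest means and the F6 High library the lowest.

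**Figure D4:**
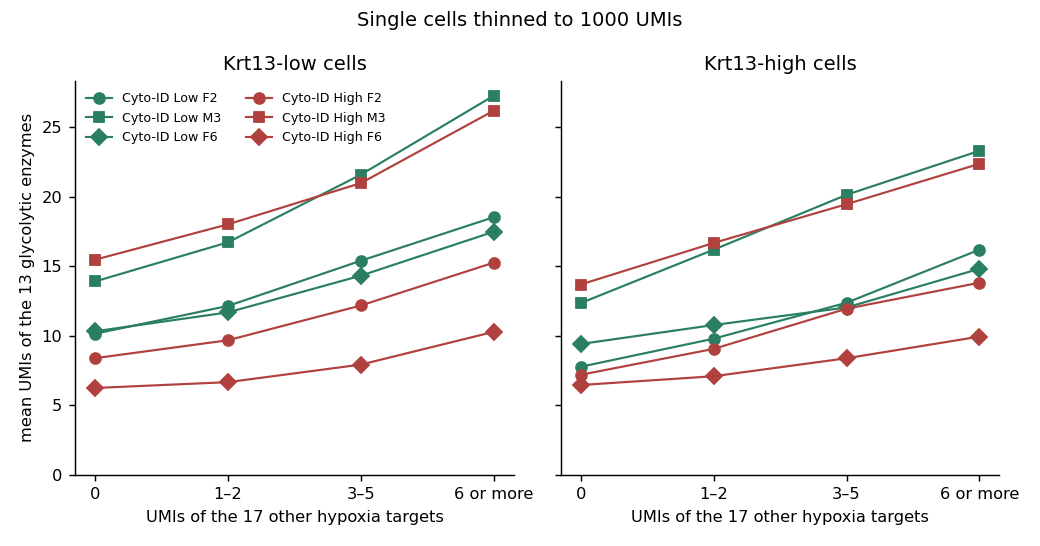
Mean UMIs of the 13 glycolytic enzymes (y axis, from 0) in cells thinned to 1000 UMIs, by their UMIs of the 17 other hypoxia targets (x axis), with a line for each library in Krt13-low (left) and Krt13-high cells (right). All 12 lines rise from left to right, by 1.54 to 2.08 times.

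Gene by gene, cells with 4 or more UMIs of other hypoxia targets were set against cells with 1 or fewer, leaving the gene itself out of the sum. The ratio of mean UMIs over the 6 libraries in Krt13-low cells was 3.81 to 5.75 (median 4.67) for Egln3, 1.76 to 6.51 (median 4.72) for Vegfa, 3.56 to 7.05 (median 4.39) for Ero1l and 1.95 to 4.39 (median 3.22) for Bnip3. It was 1.61 to 1.99 (median 1.78) for Pgk1, 1.49 to 1.88 (median 1.61) for Gapdh, 1.5 to 1.9 (median 1.62) for Aldoa, 1.18 to 1.52 (median 1.3) for Ldha and 1.16 to 1.43 (median 1.26) for Pkm. Among these 9 genes the enzymes had the lower ratios, Pkm and Ldha the lowest. The roles overlapped over all members, since Pgk1 lay level with the target Higd1a (median 1.77), and in Krt13-high cells the target Bnip3l (median 1.46) lay below Gapdh (median 1.67) and Pfkp (median 2.32). Hif1a lay at 0.928 to 1.14 (median 0.979), on both sides of 1, and in Krt13-high cells at 0.952 to 1.33 (median 1.14). Across the 1034 to 1342 well-expressed genes, the median ratio was 0.953 to 1.08 and the 90th percentile 1.24 to 1.48 over the 12 combinations. Of the members with 20 or more UMIs in the lower class of every library, 7 of 8 other hypoxia targets and 5 of 11 glycolytic enzymes lay above that 90th percentile in 6 of 6 libraries in Krt13-low cells, and 6 of 8 and 4 of 11 in Krt13-high cells. The other 15 members, among them Car9, Adm and Ankrd37, had fewer UMIs in at least 1 library and layer and are not counted. Slc2a1 ran from 1.09 to 3.38 in Krt13-low cells, and Higd1a, which was higher in the High libraries where Car9 and Ero1l were lower, from 1.37 to 2.15. Higd1a thus rose with the other targets from cell to cell, and Egln1 did too, at 1.92 to 2.79 (median 2.63), although their layer differences had opposite signs. Before thinning, cells with 4 or more hypoxia-target UMIs had a lower median depth than cells with 1 or fewer in each of the 12 combinations. In Krt13-low cells of the Low library M3 it was 4602 against 6047 UMIs. Reads of free RNA and doublets also enter these counts, and the part of each of these in the result was not tested.

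**Figure D5:**
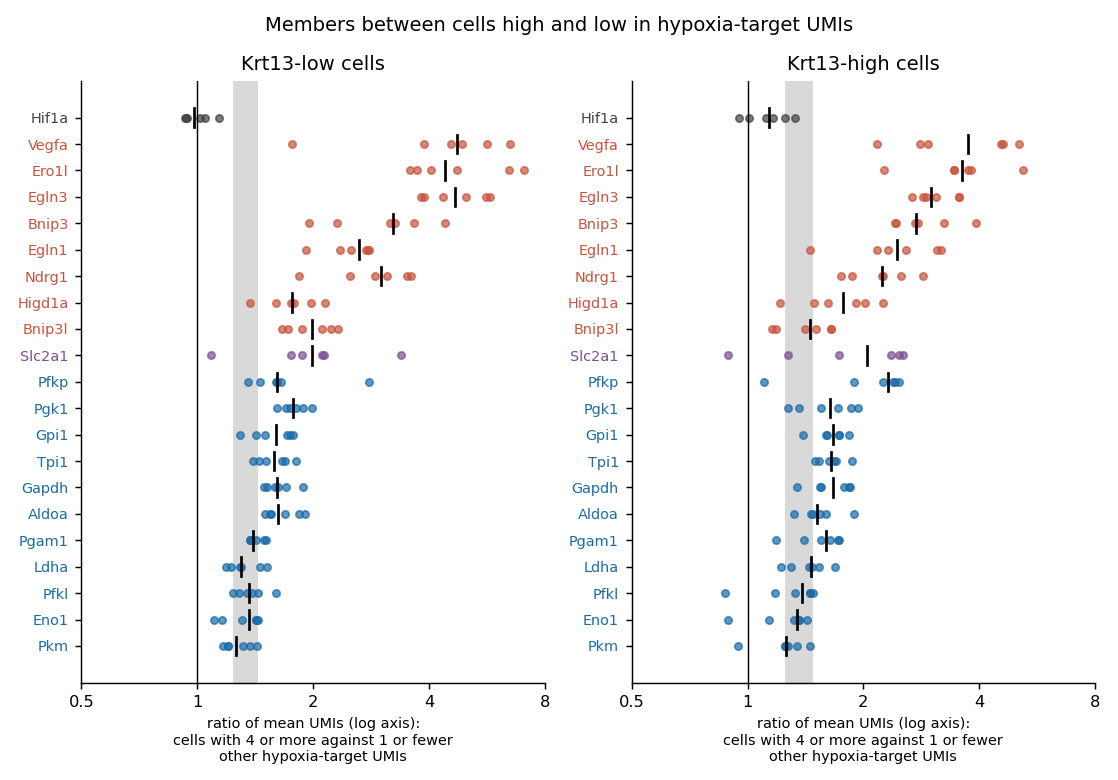
Ratio of mean UMIs between cells with 4 or more and 1 or fewer UMIs of other hypoxia targets (x axis, log scale) for the members with 20 or more UMIs in the lower class of every library, a point for each of 6 libraries and a bar at their median. The grey band spans the libraries' 90th percentiles of all genes, the hypoxia targets lie mostly to its right, the enzymes around and right of it, and Hif1a near 1.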

How the data were processed

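The 6 single-cell libraries analysed comprised 3 founded by Cyto-ID Low and 3 by Cyto-ID High cells. The deposited tables hold, per cell, the natural log of 1 plus UMIs per 10000.0, as read from the values, where every value converts to whole UMIs within 1e-06. The submitters' processing notes name Cell Ranger 6.0.0, Seurat 4 and the builds mm10 and GRCm38.
Here values were turned back into CPM and averaged over the cells of each library and layer, giving 12 profiles. Genes with 1 CPM or more in 3 profiles of a fit were kept (all 36 members passed each fit), and log2(CPM + 1) was scaled by TMM factors (trims of 30% of ratios and 5% of levels). Fits used limma 3.58.1 in R 4.3.3 with Benjamini-Hochberg adjustment over all genes, after tests on simulated data. Other steps used Python 3.11.15 and numpy 2.4.6.
The main Cyto-ID fits were unpaired, and the replicate block was the alternative fit. Replicate labels were read as pairs in the block and in counts over pairs, because same-numbered Low and High libraries deviated together, weakly in F6. Their r was 0.70, 0.60 and 0.13 for F2, M3 and F6 in Krt13-low cells and 0.73, 0.56 and 0.21 in Krt13-high cells. Low F2 with High F6 (r 0.22 in Krt13-low cells) exceeded the F6 pair. Deviations were taken from the mean of each group, so these r values are not independent. Genes named were the members largest by fitted difference in each role and comparison plus a preset few, and others are given after their values were seen. The members and lists were chosen with earlier results of these data known. Alternatives changed the pseudocount, filter, scaling, summing, depth, cell filter, cut, cycling and deepest cells, and the libraries. No doublet caller was run. The result of 1 further pathway gene is not reported here.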

Additional observations from a re-analysis of the deposited data

Results flagged for a closer look

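The difference between the layers differed between the founder groups for 3 members by limma's test of the difference with the replicate number as a block. The signed log2 difference, Krt13-high minus Krt13-low, was higher in the Cyto-ID High than in the Low libraries by 0.62 for Egln1, by 0.56 for Ndrg1 and by 0.54 for Pfkp. For Egln1 and Pfkp, which were lower in Krt13-high cells, this was a smaller fall in the High libraries. Without the block none of the 3 passed the adjusted threshold, and 7 members had an unadjusted p under 0.05, where 9.8% of all genes did. With the block 2.12% of all genes were called, 0.882% with a positive difference.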

How the results depend on the processing

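Leaving TMM factors out moved the layer results most: on plain CPM 3 members were higher and 22 lower, and the medians became -0.18 (glycolytic enzymes) and -0.25 (other hypoxia targets). Single members that changed sign there were Hk1 (-0.10), Gpi1 (-0.34), Pfkl (-0.081), Tpi1 (-0.13), Gapdh (-0.18), Pgk1 (-0.19), Pgam1 (-0.032), Eno1 (-0.24), Pkm (-0.22), Ldha (-0.17), Slc16a3 (-0.044), Pdk1 (-0.40), Ero1l (-0.11), Vegfa (-0.35), Bnip3l (-0.057), Ndrg1 (-0.23), Mxi1 (-0.16) and Ak4 (-0.25). Cells in Krt13-high layers hold more UMIs; the cause was not tested. UMIs per cell, an alternative chosen after seeing the data, gave medians of 0.28 and 0.19. For the layer difference between founder groups, plain CPM called 1 member higher and gave a glycolytic median of 0.23, and summed UMIs called 1 member.

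Counts of all genes called between founder groups were small and moved. In Krt13-low cells (27 as reported) they were 2 with no filter and 16 in cells with 1000 or more genes. In Krt13-high cells (32 as reported) they were 6 with a pseudocount of 0.1, 0 with no filter, 21 with summed UMIs and 20 with a Krt13 cut of 2. For the layer difference between groups (24 as reported) they were 9 with a pseudocount of 0.1, 0 with no filter, 2 in cells with 1000 or more genes, 9 with a cut of 4 and 41 without cycling cells, and the cut of 4 gave a hypoxia target median of 0.077. The causes were not tested.

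With the replicate block, pairing same-numbered libraries, all-gene counts were 81, 87 and 257, and members called were 1 (Car9), 1 (Car9) and 3; it changed no other member's call in these 3 comparisons. Leaving out 1 library each gave 6 to 28 genes in Krt13-low cells, 4 to 30 in Krt13-high cells, 4 to 101 for the difference and 0 to 1 members for it. The hypoxia target medians then ran from -0.32 to -0.050 in Krt13-high cells and 0.11 to 0.33 for the difference.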
